A study of Homo sapiens with 10 samples.

Results

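The control cultures of PC9M, a line labelled for stronger spread to bone and brain, were compared with those of PC9, a lung adenocarcinoma line labelled for general metastasis. The comparison rests on 4 of the 10 libraries of the series, 2 from each line. PC9M had 1 library from cells given DMSO, the solvent of the ABL kinase inhibitor GNF5, and 1 from cells transduced with scrambled shRNA with 8 ug/mL polybrene, the control for shRNAs against ABL1 and ABL2. PC9 had the same 2 controls, and all cells were grown in the same RPMI medium with serum. Treated cultures of both lines, with GNF5 for 72 h or with shRNAs against ABL1 and ABL2, and a DMSO culture of a further adenocarcinoma line, H358, were used only as a check beside the controls. Levels are FPKM, fragments scaled to transcript length and to the mapped fragments of the library. For each gene the difference was taken as log2(FPKM + 1) of PC9M minus that of PC9, once between the DMSO libraries and once between the scrambled libraries, after each library was centred on its own median. Of 21403 genes, 11824 had at least 1 FPKM in PC9M or PC9 in each pair and were counted. A gene was called higher or lower in PC9M where it was at least 2-fold apart in the same direction in both pairs. Each group held 1 library and the lines stood in tables that were normalised separately, so no test was run and no value carries a replicate error. All values set between the lines below are across such tables.

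PC9 is a human lung adenocarcinoma line that depends on a mutant, active EGF receptor. Cells that seed distant organs must leave the epithelial sheet, survive in transit and grow in a foreign matrix, and lines selected for spread often differ from their parents in adhesion proteins, matrix, secreted factors and interferon or YAP signalling. Fibronectin, encoded by FN1, is a matrix glycoprotein bound by integrins, and keratin 13, encoded by KRT13, is an intermediate filament protein of stratified, non-cornified epithelia. The labels do not say how PC9M was derived, nor whether the cultures of a line were grown side by side.

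All 4 libraries held the defining transcripts of an epithelial line. EPCAM, a cell adhesion molecule of epithelia, stood at 202 and 218 FPKM in the DMSO and scrambled libraries of PC9M and at 333 and 543 FPKM in those of PC9. CDH1, the epithelial cadherin, stood at 75.9 and 85.4 FPKM in PC9M and 66.98 and 74.4 FPKM in PC9, and KRT7, a keratin of simple epithelia, at 1129 and 1197 FPKM in PC9M and 1422 and 1247 FPKM in PC9. NKX2-1, the transcription factor of peripheral lung epithelium, was at 0.0102 FPKM in the PC9M DMSO library and at 0.013 FPKM in the PC9 DMSO library, and was listed at 0 in both scrambled libraries, whereas H358 had 92.1 FPKM. This lung lineage factor was thus near 0 in both lines. Of the further lung lineage markers, SFTPB stood at 0.122 and 0.0583 FPKM in PC9M and 15.2 and 0.197 FPKM in PC9. NAPSA stood at 0.217 and 0.103 FPKM in PC9M and 1.37 and 0.0827 FPKM in PC9. Both were highest in the PC9 DMSO library. Markers of other cell types were low: 11 fibroblast genes summed to 3.06 and 2.51 FPKM in PC9M and 1.58 and 1.94 FPKM in PC9, with DCN listed at 0 in all 4. The 13 leukocyte genes summed to 19.6 and 35.9 FPKM in PC9M, mostly from CD68, a lysosomal protein, and 11.5 and 6.08 FPKM in PC9, with PTPRC, which all leukocytes carry, under 0.04 FPKM in every control library. The 7 endothelial markers summed to 4.76 and 4.08 FPKM in PC9M, against 36.0 and 22.01 FPKM in PC9, and 3 of them were counted: PECAM1, an adhesion molecule, CDH5 and ESAM. PECAM1 stood at 0.0895 and 0.103 FPKM in PC9M and 23.2 and 5.33 FPKM in PC9, while VWF was below 0.08 FPKM in every control library. The part of other cell types in the results was not tested. In bulk RNA, fewer cells with a transcript and less of it per cell cannot be told apart.

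The libraries differed in 3 ways that touch what follows. The 2 controls of PC9M lay close together, with 162 of the counted genes at least 2-fold apart between scrambled and DMSO, while those of PC9 had 1678. The difference between the lines moved with base composition: across 10371 counted genes matched to reference transcripts, its Spearman correlation with transcript GC content was -0.45 in the DMSO pair and -0.39 in the scrambled pair, a description over genes that share the same 4 libraries. In the lowest decile of GC content 32.5% of genes were higher in PC9M and 1.25% lower, and in the highest decile 5.79% were higher and 28.4% lower. Against the DMSO library of H358, the same correlation was -0.08 for PC9M and 0.37 for PC9. Date-like symbols, which spreadsheets make from gene names, carry the year 2015 in the PC9M tables, 2014 in the PC9 tables and 2013 in the H358 table, so the line and the making of its table cannot be told apart. The part of base composition in the results was not tested. Differences centred within 20 bins of GC content are therefore given beside the main ones, an addition made after the data were seen.

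**Figure D1:**
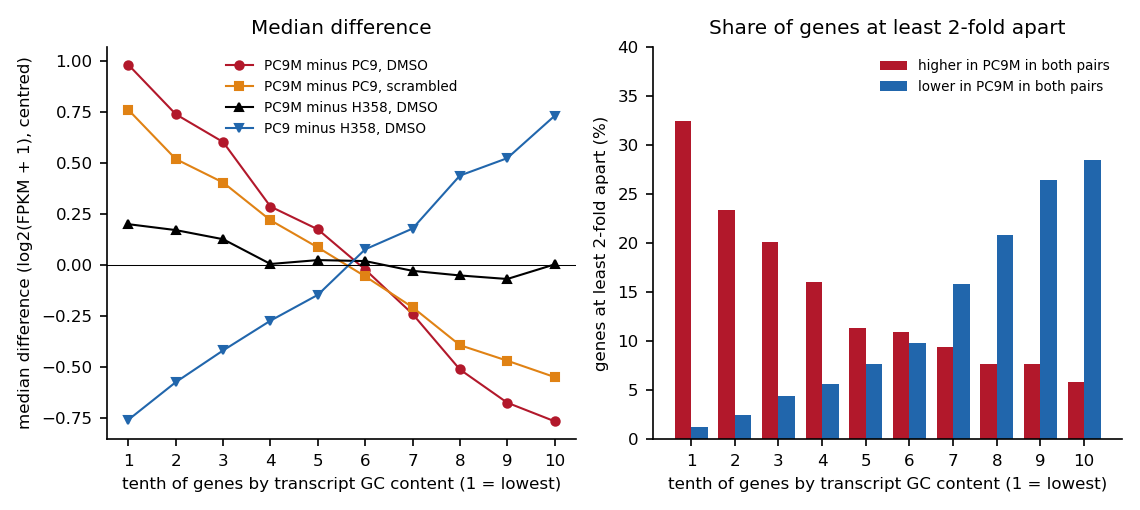
Left, the median difference in log2(FPKM + 1) in each decile of transcript GC content, for PC9M minus PC9 in both control pairs and for each line minus H358. Right, bars give the percentage of genes in each decile that were at least 2-fold higher or lower in PC9M in both pairs; the higher share is 32.5% in the lowest decile and 5.79% in the highest.

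Counted genes fell into large groups on both sides. At least 2-fold higher in PC9M in both pairs were 1707 genes, which is 14.4% of those counted, and 1458 genes, or 12.3%, were lower. Past 8-fold in both pairs there were 58 higher and 76 lower genes. Only 20 genes were at least 2-fold apart in opposite directions in the 2 pairs, and the differences of the pairs had a Pearson correlation of 0.86 across genes. Of the 1500 higher genes with a GC value, 905 stayed past 2-fold in both pairs when centred by GC content. Of the 1273 lower genes with one, 770 did. The counts after that centring were 1207 higher, or 11.6% of 10371 genes, and 936 lower, or 9.03%, and include genes not called with median centring. Counts on the gene lists below are to be read beside these shares. Centring on the upper quartile instead shifted all differences by 0.14 in the DMSO pair and 0.17 in the scrambled pair, and 65.4% of the called genes were then on the higher side, against 53.9% with median centring. The values nearest the 2-fold line show how it divides like genes: ZNF551, at 1.87 and 1.0001 in the DMSO and scrambled pairs, lay just inside it and TIPIN, at 2.24 and 0.9994, just outside, while on the lower side USF2 at -1.81 and -1.0006 was inside and TBC1D13 at -1.33 and -0.9995 outside.

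**Figure D2:**
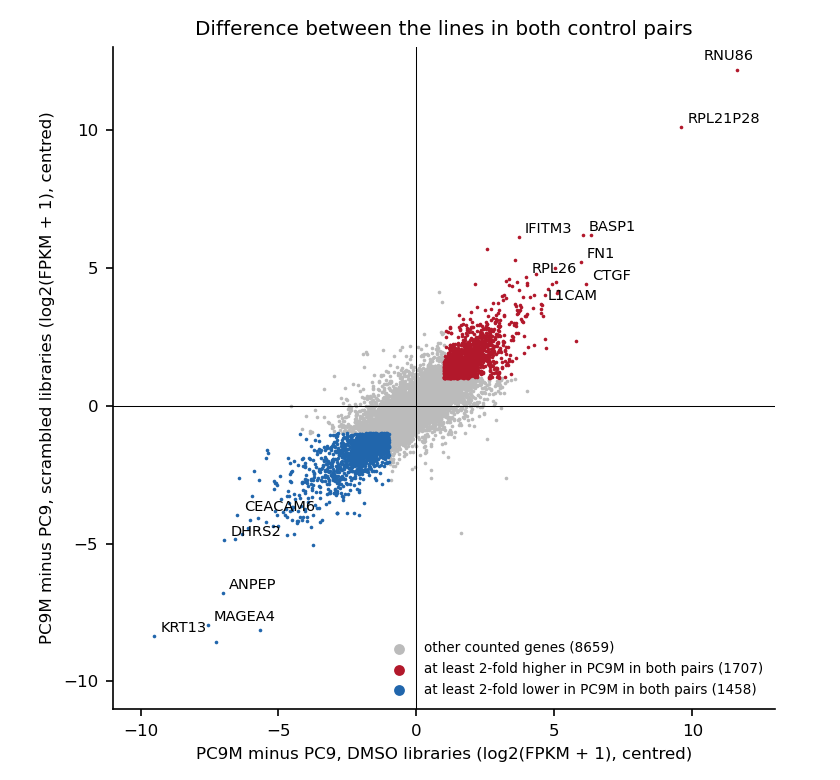
Each point is 1 of 11824 counted genes, placed by its PC9M minus PC9 difference in log2(FPKM + 1) in the DMSO pair (x) and in the scrambled pair (y). Red and blue points are the 1707 genes higher and the 1458 genes lower in both pairs; FN1 and BASP1 stand at the high end and KRT13, MAGEA4 and ANPEP at the low end. RNU86, a small nucleolar RNA that was listed at 0 in both PC9 libraries, is the point at the upper right. It had 1072 FPKM in the PC9 culture with GNF5, shares its listed locus, and escaped the removal of short RNAs, which went by symbol.

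Fibronectin and keratin 13 stood at opposite ends of the comparison. FN1, at chromosome 2, 215933424 to 216009036 on hg18, had 401 and 559 FPKM in the DMSO and scrambled libraries of PC9M and 5.17 and 15.6 FPKM in those of PC9. Both PC9M libraries lay far above both PC9 libraries, with differences of 5.95 and 5.21, and of 5.98 and 5.29 when centred by GC content. KRT13, at chromosome 17, 36910759 to 36915391, had 0.274 and 2.99 FPKM in PC9M and 879.9 and 1416 FPKM in PC9, with differences of -9.50 and -8.34. It was abundant in both PC9 libraries and near 0 in the PC9M DMSO library.

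**Figure D3:**
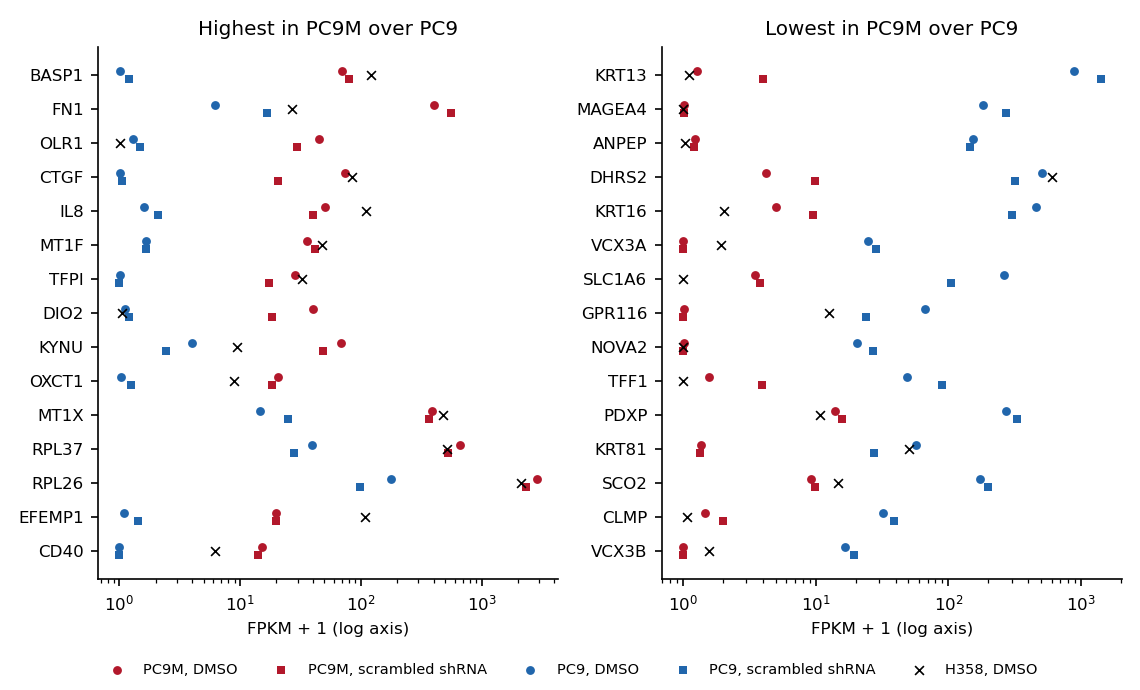
Levels, as FPKM + 1 on a log axis, of the 15 protein-coding genes with the highest and the 15 with the lowest PC9M over PC9 difference, judged by the smaller of both pairs. Red marks are PC9M, blue marks PC9 and crosses H358, with circles for DMSO and squares for scrambled shRNA; in each of the 30 genes both PC9M marks lie on the same side of both PC9 marks.

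The matrix list differed in both directions. Of 38 counted genes of the extracellular matrix, FN1 included, 7 were higher and 11 lower in PC9M in both pairs, with list medians of -0.69 and -0.63, against 0.10 and 0.09 over all counted genes. EFEMP1, a fibulin of elastic matrix, had 18.8 and 18.8 FPKM in PC9M and 0.0962 and 0.419 FPKM in PC9. The basement membrane laminin chains LAMA4 and LAMB3 went the other way: LAMA4 had 2.21 and 3.07 FPKM in PC9M and 80.1 and 59.4 FPKM in PC9. LAMB3, a chain of the laminin that anchors epidermis, had 18.2 and 30.9 FPKM in PC9M and 242 and 226 FPKM in PC9. The collagen chains COL6A1 and COL13A1 were also lower, with differences of -3.95 and -4.03 and of -3.55 and -3.72. Other collagens were higher, among them the basement membrane chains COL4A1 and COL4A2, with differences of 1.37 and 2.06 and of 2.63 and 2.75. The list has a GC median of 55.5%, and its medians centred by GC content were -0.23 and -0.17, with 8 genes higher and 11 lower.

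Integrin genes, and genes of proteases and their inhibitors, were more often lower than higher in PC9M. None of 12 counted integrin genes was higher in both pairs and 5 were lower: ITGA3, ITGA5, ITGA6, ITGAE and ITGB6. ITGA5, whose product pairs with the beta 1 chain as the classical fibronectin receptor, had 5.90 and 11.4 FPKM in PC9M and 53.9 and 51.5 FPKM in PC9. ITGA6, part of a laminin receptor, had 50.2 and 80.6 FPKM in PC9M and 161 and 346 FPKM in PC9. ITGA3, part of a further laminin receptor, differed by -3.04 and -1.07, but by -2.36 and -0.58 when centred by GC content, which ends its call. Among 29 proteases and inhibitors 1 was higher and 10 lower. TIMP3, an inhibitor of metalloproteases held in the matrix, had 9.61 and 10.9 FPKM in PC9M and 299.8 and 135 FPKM in PC9. The plasminogen activators PLAU and PLAT differed by -2.18 and -1.41 and by -5.47 and -1.91. The listed loci of ITGAE, TIMP3 and PLAU each hold a further gene. CTSL1, the lysosomal protease cathepsin L, differed by -3.70 and -1.60 and has no GC value here. After centring by GC content, 4 integrins and 6 of the proteases and inhibitors were lower in both pairs.

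Stratified keratins were the list with the lowest medians. Of 18 counted genes 14 were lower in PC9M in both pairs and none was higher, with medians of -2.53 and -2.26, and of -2.04 and -1.91 when centred by GC content, where 10 genes were lower. KRT16, a keratin of activated epidermis, had 4.05 and 8.61 FPKM in PC9M and 458 and 298 FPKM in PC9. KRT5 and KRT14, the pair of the basal epidermal layer, differed by -3.74 and -5.05 and by -4.69 and -4.03. The hair keratin KRT81 had 0.365 and 0.348 FPKM in PC9M and 56.4 and 26.8 FPKM in PC9. Related keratins have stretches in common, so reads may be split among KRT14, KRT16, KRT81 and their relatives. Keratins of simple epithelia were not called: KRT19 had 1569 and 1366 FPKM in PC9M and 1689 and 3455 FPKM in PC9, past 2-fold in the scrambled pair alone. KRT18, which was not counted because the authors' tables mark its PC9M estimate as failed, is listed at 2920.2 and 2825 FPKM in PC9M and 1958 and 3395 FPKM in PC9.

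Among 25 counted genes of the cornified envelope and squamous differentiation, 1 was higher and 6 lower, and with centring by GC content 3 were higher and 8 lower. The kallikrein proteases KLK5, KLK8 and KLK10, which loosen the bonds between cornified cells, differed by -1.74 and -1.76, by -2.37 and -1.94 and by -3.17 and -3.18. SERPINB3, a squamous cell protease inhibitor, had 0.0422 and 0.684 FPKM in PC9M and 18.6 and 7.27 FPKM in PC9. CNFN, a cornified envelope protein, was the exception at 6.56 and 5.54 FPKM in PC9M and 0.471 and 0.678 FPKM in PC9.

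Of 37 counted epithelial junction genes 2 were higher and 7 lower in PC9M, beside overall shares of 14.4% and 12.3%. The list medians were -0.30 and -0.23, and after centring by GC content 3 were higher and 1 lower. CDH3, the placental cadherin, had 23.6 and 24.2 FPKM in PC9M and 53.4 and 61.8 FPKM in PC9, with differences of -1.22 and -1.19 that were -1.02 and -0.97 when centred by GC content. The tight junction gene CLDN3 was higher with 24.4 and 16.6 FPKM in PC9M and 8.18 and 3.09 FPKM in PC9. Of 10 desmosome genes 1 was higher and none lower: PKP2, a plakophilin, had 58.6 and 54.1 FPKM in PC9M and 5.84 and 17.3 FPKM in PC9. Of 19 mesenchymal genes 3 were higher and 3 lower, near the shares of 14.4% and 12.3% over all counted genes, and with centring by GC content 6 were higher and 3 lower. CDH2, the neural cadherin gained in many mesenchymal transitions, stood at 2.96 and 2.67 FPKM in PC9M and was listed at 0 in both PC9 libraries. MYL9, a myosin light chain, stood at 5.72 and 5.44 FPKM in PC9M, whereas PC9 had 0.0808 FPKM with scrambled shRNA and a listed 0 with DMSO. SPOCK1, a secreted proteoglycan, had 14.4 and 25.7 FPKM in PC9M and 0.578 and 6.30 FPKM in PC9. S100A4, a calcium-binding protein often used as a marker of motile cells, went the other way with 13.6 and 9.96 FPKM in PC9M and 338 and 138 FPKM in PC9. The intermediate filament gene VIM was low in all 4 libraries, at 4.67 and 8.77 FPKM in PC9M and 1.51 and 5.16 FPKM in PC9.

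YAP and TAZ are transcriptional co-activators that respond to cell shape and stiffness, and a list of their targets, partners and regulators was more often higher than lower. Of 24 counted genes, which include the partner factors TEAD1 to TEAD4, 9 were higher in PC9M, TEAD1 among them, and 1, AMOTL1, was lower. These counts stand beside overall shares of 14.4% and 12.3%. The list medians were 1.21 and 0.80, and 1.26 and 0.84 when centred by GC content. The other 14 were not called, among them the targets CYR61, F3 and CRIM1. The genes named below are higher ones picked for their large differences. CTGF, a secreted matricellular protein and a textbook target of the pathway, had 73.2 and 19.6 FPKM in PC9M and 0.00656 and 0.0559 FPKM in PC9. It was near 0 in both PC9 libraries and differed between the 2 controls of PC9M. NUAK2, a kinase, had 16.6 and 9.40 FPKM in PC9M and 0.18 and 0.37 FPKM in PC9. The LIM protein gene AJUBA and the nuclear ankyrin repeat gene ANKRD1 differed by 1.94 and 2.19 and by 3.08 and 1.93. FOXF2, a forkhead factor, stood at 7.52 and 11.1 FPKM in PC9M, whereas PC9 had 0.0339 FPKM with DMSO and a listed 0 with scrambled shRNA.

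A list of genes tied in other studies to spread to bone or brain had 6 of 15 counted members higher and 2 lower, with medians of 1.23 and 0.51; with centring by GC content 5 were higher and 2 lower. L1CAM, a neural adhesion molecule, had 37.2 and 24.5 FPKM in PC9M and 0.57 and 1.19 FPKM in PC9. PTGS2, the cyclooxygenase that makes prostaglandins, had 5.78 and 9.91 FPKM in PC9M and 0.00133 and 0.0604 FPKM in PC9. CTGF and CDH2, given above, also belong to the list. SPP1, the bone matrix protein osteopontin, was lower at 129.7 and 95.3 FPKM in PC9M and 466 and 299 FPKM in PC9, as was HBEGF, a ligand of the EGF receptor, at 8.01 and 10.6 FPKM in PC9M and 139.9 and 57.4 FPKM in PC9. Osteopontin transcripts were abundant in both lines. Of 16 neuroendocrine and neural adhesion genes 5 were higher and 2 lower, and 6 and 2 with centring by GC content. TUBB3, a neuronal tubulin, was higher and had 24.3 and 34.4 FPKM in PC9M and 1.52 and 7.98 FPKM in PC9. ROBO1, the receptor of the guidance cue Slit, was lower and had 0.0235 and 0.0255 FPKM in PC9M and 4.20 and 4.77 FPKM in PC9.

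About as many interferon response genes were higher in PC9M as were not called, and none was lower. Interferons bind cell surface receptors and switch on a shared set of antiviral genes through a promoter element built from repeated GAAA. Of 39 counted genes 19 were higher and none lower, beside 14.4% and 12.3% of all counted genes. The list medians were 0.93 in the DMSO pair and 2.01 in the scrambled pair. In the DMSO pair alone 19 genes were higher and 1 lower, in the scrambled pair alone 30 and none, and with centring by GC content 13 were higher in both pairs. Over all 11824 counted genes, 2652 were higher and 2349 lower in the DMSO pair alone, and 2168 and 1794 in the scrambled pair alone. The scrambled library of PC9M lay above its DMSO library on this list by a median of 1.16, against 0.09 in PC9.

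Promoters of 3 of the named interferon genes are printed to show that element. They run from 250 bases before to 50 after the transcript start, 5′ to 3′ on the gene's strand, from RefSeq on GRCh38.p14; capitals mark GAAA, 2 bases of any kind and GAAA again, on either strand, with overlapping matches merged.
IFITM3, chr11:320811-321110, minus strand: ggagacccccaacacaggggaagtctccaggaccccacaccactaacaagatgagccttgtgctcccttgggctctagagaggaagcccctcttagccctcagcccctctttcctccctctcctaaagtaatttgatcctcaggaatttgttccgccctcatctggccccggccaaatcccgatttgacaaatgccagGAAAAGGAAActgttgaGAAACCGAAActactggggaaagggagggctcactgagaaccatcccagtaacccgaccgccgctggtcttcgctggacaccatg
BST2, chr19:17405581-17405880, minus strand: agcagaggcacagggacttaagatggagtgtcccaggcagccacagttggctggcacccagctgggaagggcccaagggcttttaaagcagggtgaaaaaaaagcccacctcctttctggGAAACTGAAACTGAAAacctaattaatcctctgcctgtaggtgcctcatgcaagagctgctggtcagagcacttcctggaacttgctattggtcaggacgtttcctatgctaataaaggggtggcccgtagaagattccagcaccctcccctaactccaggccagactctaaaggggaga
IFI6, chr1:27672143-27672442, minus strand: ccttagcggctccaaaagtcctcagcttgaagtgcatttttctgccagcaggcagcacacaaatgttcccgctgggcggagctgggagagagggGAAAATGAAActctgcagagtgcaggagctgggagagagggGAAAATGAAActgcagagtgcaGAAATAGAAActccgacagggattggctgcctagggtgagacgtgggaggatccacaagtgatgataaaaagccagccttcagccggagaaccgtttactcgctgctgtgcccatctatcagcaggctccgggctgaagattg
IFITM3 holds 2 matches, BST2 2 and IFI6 3. These were picked for holding several; of the other named interferon genes OAS3 holds 2, SAMD9 1 and SP110 none. In the reference table, 22 of 32 promoters of counted interferon genes hold a match, or 68.8%, against 2.69% of the promoters of counted genes and 3.65% of all 27305. Within the list 13 of 17 promoters of genes higher in both pairs hold it, and 9 of 15 of the others; that difference was not tested. A match is a description of these letters and not a site shown to be bound.

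The levels of these genes show the 2 steps, between lines and between controls of PC9M. IFITM3, which blocks viral entry at membranes, had 126 and 295 FPKM in PC9M and 8.26 and 3.72 FPKM in PC9. BST2, which tethers budding virus, had 12.7 and 26.2 FPKM in PC9M and 0.0419 and 0.323 FPKM in PC9. IFI6, an interferon-induced mitochondrial protein, had 6.52 and 125 FPKM in PC9M and 0.228 and 1.72 FPKM in PC9. In all 3 both PC9M libraries lay above both PC9 libraries, and the PC9M scrambled library was the highest. The named members SAMD9, OAS3 and SP110 differed by 3.47 and 4.33, by 2.18 and 3.57 and by 2.33 and 2.59.

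Of 17 counted genes of MHC class I and its loading, 3 were higher and 1 lower, and with centring by GC content 5 were higher and none lower. PSMB9, a subunit of the immunoproteasome, had 12.5 and 12.2 FPKM in PC9M and 0.0465 and 0.17 FPKM in PC9. TAP1, the peptide transporter, whose listed locus it shares with other genes, had 12.99 and 18.3 FPKM in PC9M and 3.61 and 5.03 FPKM in PC9. PSME2, a proteasome activator, had 107 and 97.5 FPKM in PC9M and 21.97 and 22.1 FPKM in PC9.

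Of 18 counted cytokine genes 6 were higher and 4 lower, and with centring by GC content 5 were higher and 4 lower. IL8, a neutrophil chemoattractant, had 49.4 and 38.9 FPKM in PC9M and 0.61 and 1.08 FPKM in PC9. IL6, an inflammatory cytokine, had 5.66 and 6.86 FPKM in PC9M and 0.219 and 0.399 FPKM in PC9. CSF1, the macrophage growth factor, and LIF, a cytokine of the IL-6 family, were lower, with differences of -3.82 and -2.69 and of -2.94 and -1.94. CD40, a TNF receptor family member, stood at 14.2 and 13.005 FPKM in PC9M and was listed at 0 in both PC9 libraries. Among complement and mucosal genes 2 of 27 were higher and 6 lower, and with centring by GC content 5 were higher and 6 lower. CEACAM6, a carcinoembryonic antigen family member, had 12.5 and 49.7 FPKM in PC9M and 1156 and 868 FPKM in PC9. The complement component C3 had 5.18 and 10.2 FPKM in PC9M and 133 and 61.5 FPKM in PC9, and the trefoil peptide TFF1 0.566 and 2.94 FPKM in PC9M and 47.5 and 88.7 FPKM in PC9. The mucin MUC1 was higher, with 25.3 and 21.8 FPKM in PC9M and 5.30 and 1.37 FPKM in PC9. CEACAM6 has relatives that are near-identical in part, so reads may be split among them.

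Other genes at the high end of PC9M have unrelated roles. BASP1, a membrane protein of growth cones, had 68.6 and 78.04 FPKM in PC9M and 0.0194 and 0.196 FPKM in PC9. OLR1, the receptor of oxidised low-density lipoprotein, had 44.2 and 28.9 FPKM in PC9M and 0.3 and 0.472 FPKM in PC9. TFPI, the inhibitor of tissue factor, had 27.7 and 16.3 FPKM in PC9M and 0.00452 and 0.00155 FPKM in PC9. All 3 were under 0.5 FPKM in both PC9 libraries. DIO2, which activates thyroid hormone, had 39.1 and 17.5 FPKM in PC9M and 0.104 and 0.208 FPKM in PC9; its listed locus holds a further gene. KYNU, an enzyme of tryptophan breakdown, differed by 4.03 and 4.45, and OXCT1, which lets cells burn ketone bodies, by 4.25 and 4.02. The metallothioneins MT1F and MT1X, small metal-binding proteins, had 34.6 and 40.7 and 386 and 367 FPKM in PC9M, against 0.664 and 0.675 and 13.5 and 24.1 FPKM in PC9. Metallothionein genes are near-identical copies and reads may be split among them.

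The genes at the low end also have varied roles. MAGEA4, a cancer-testis antigen, had 0.0145 and 0.019 FPKM in PC9M and 182 and 273 FPKM in PC9. ANPEP, the surface protease aminopeptidase N, had 0.238 and 0.207 FPKM in PC9M and 153 and 146 FPKM in PC9. DHRS2, a short-chain dehydrogenase, had 3.26 and 8.91 FPKM in PC9M and 506 and 315 FPKM in PC9. All 3 were abundant in PC9, and MAGEA4 and ANPEP were near 0 in PC9M. SLC1A6, a glutamate transporter, differed by -6.31 and -4.64, GPR116, an adhesion receptor of lung epithelium, by -6.10 and -4.45, and CLMP, a junctional adhesion molecule, by -4.52 and -4.16. NOVA2, a neuronal splicing factor, stood at 0.0103 FPKM in the PC9M DMSO library and was listed at 0 in the PC9M scrambled library, against 19.6 and 26.2 FPKM in PC9. VCX3A and VCX3B, X-linked germ cell genes, were under 0.01 FPKM in both PC9M libraries, against 23.8 and 27.4 and 15.8 and 18.6 FPKM in PC9; they are near-identical copies. PDXP, a pyridoxal phosphatase, and SCO2, a copper chaperone of cytochrome oxidase, complete the 15 named genes and are both encoded on chromosome 22. Of 7 counted cancer-testis antigens 3 were lower and 1 higher, and with centring by GC content 3 were lower and none higher.

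Growth factor signalling was examined from the receptors down. EGFR itself was not called and stood at 86.2 and 140.1 FPKM in PC9M and 97.5 and 139 FPKM in PC9, with differences of -0.25 and 0.14. Of 16 counted genes of its family, ligands and feedback inhibitors, none was higher and 4 lower: ERBB2, a co-receptor, HBEGF, and the inhibitors SPRY4 and DUSP5. With centring by GC content SPRY4 differed by -2.38 and -0.85 and DUSP5 by -1.98 and -0.95, so neither was then called. ERBB2 had 17.3 and 12.5 FPKM in PC9M and 68.1 and 50.9 FPKM in PC9. Among 24 other receptor tyrosine kinases and ligands 4 were higher and 6 lower, beside overall shares of 14.4% and 12.3%. With centring by GC content 4 were higher and 3 lower. The ephrin receptor EPHB6 had 4.48 and 5.004 FPKM in PC9M and 40.97 and 25.6 FPKM in PC9, and its relative EPHA2 26.6 and 31.9 FPKM in PC9M and 128 and 87.8 FPKM in PC9, with EPHA2 short of 2-fold in the scrambled pair when centred by GC content. The ligands EFNB1 and EFNB2 were lower, with differences of -2.15 and -1.97 and of -3.32 and -1.61, whereas the ligand EFNA1 was higher, with differences of 1.04 and 1.19.

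Notch genes, whose products pass signals between touching cells, were lower in 6 of 14 counted genes and higher in none, with medians of -1.68 and -0.86. The receptor NOTCH3 had 26.4 and 23.4 FPKM in PC9M and 193 and 82.6 FPKM in PC9, the ligand JAG2 5.38 and 8.45 FPKM in PC9M and 19.1 and 23.1 FPKM in PC9, and the target HES4 12.1 and 18.1 FPKM in PC9M and 52.6 and 65.8 FPKM in PC9. The list has the highest GC median of those described here, 61.7%, and NOTCH3 was among the 2 genes past 2-fold when centred by GC content, with medians of -0.94 and -0.59. Of 29 Wnt genes 5 were higher and 5 lower, near the overall shares of 14.4% and 12.3%, and with centring by GC content 6 were higher and 3 lower. The ligand WNT7A had 5.10 and 8.09 FPKM in PC9M and 48.5 and 43.7 FPKM in PC9, and WLS, which carries Wnt proteins out of the cell and shares its listed locus with GNG12, 12.7 and 14.4 FPKM in PC9M and 1.09 and 2.70 FPKM in PC9. TGF-beta and BMP genes had 3 of 30 higher and 5 lower, also near the overall shares. With centring by GC content 7 were higher and 3 lower, so the balance turns with the centring. TGFBR1 and BMPR2, signalling receptors, were higher, with differences of 2.75 and 1.77 and of 2.18 and 2.04. The secreted stress factor GDF15 was lower, with differences of -4.10 and -1.91.

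The kinases that the series targets were not called in either direction. ABL1 had 9.99 and 10.5 FPKM in PC9M and 17.995 and 24.9 FPKM in PC9, with differences of -0.86 and -1.04, and of -0.34 and -0.64 when centred by GC content. ABL2 had 3.63 and 5.22 FPKM in PC9M and 4.16 and 7.88 FPKM in PC9, with differences of -0.23 and -0.38. Of 25 counted genes of the ABL kinases, their adaptors and substrates, 6 were higher and 2 lower, and 3 and 1 when centred by GC content. ABI2, an ABL interactor of the actin-nucleating WAVE complex, had 13.3 and 10.4 FPKM in PC9M and 1.87 and 2.40 FPKM in PC9. WASF3, a WAVE protein, had 3.65 and 4.06 FPKM in PC9M and 0.0626 and 0.159 FPKM in PC9. ENAH, which lengthens actin filaments, had 41.9 and 38.3 FPKM in PC9M and 8.42 and 9.62 FPKM in PC9, while its relative VASP had 33.5 and 33.2 FPKM in PC9M and 152 and 121 FPKM in PC9.

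Of 27 early response genes 4 were higher and 3 lower, near the shares of 14.4% and 12.3% over all counted genes, and with centring by GC content 5 were higher and none lower. EGR1, a zinc finger factor induced by growth signals, had 202 and 83.96 FPKM in PC9M and 13.9 and 8.11 FPKM in PC9. The orphan receptor NR4A1 was higher by 2.52 and 2.53, and the AP-1 subunit JUNB was lower, with differences of -2.17 and -1.30, or -1.35 and -0.60 when centred by GC content.

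Of 36 genes of glycolysis and hypoxia 4 were higher and 3 lower, no more than the overall shares of 14.4% and 12.3%, and with centring by GC content 7 were higher and 1 lower. LDHA, which makes lactate, had 1414 and 1181 FPKM in PC9M and 211 and 431 FPKM in PC9. The glucose transporter SLC2A3 had 71.4 and 76.3 FPKM in PC9M and 3.62 and 13.7 FPKM in PC9. ALDOC, an aldolase, was lower, with differences of -1.01 and -2.04, or -0.65 and -1.76 when centred by GC content. Among 32 aldo-keto reductases, aldehyde dehydrogenases and related enzymes 4 were higher and 6 lower, near the overall shares of 14.4% and 12.3%. With centring by GC content 6 were higher and 7 lower. AKR1B1 and AKR1B10, which reduce aldehydes, differed by -3.01 and -1.92 and by -2.03 and -2.30; they are close relatives, and AKR1B1 alone had 372 and 474 FPKM in PC9M and 2863 and 1963 FPKM in PC9. GSTM1, a glutathione transferase with close relatives, had 32.7 and 20.9 FPKM in PC9M and 3.14 and 2.22 FPKM in PC9. HYOU1, an endoplasmic reticulum chaperone, had 15.2 and 18.3 FPKM in PC9M and 176 and 158 FPKM in PC9, on a list of chaperones and stress genes of that compartment with 1 of 22 genes higher and 4 lower, or 1 and 3 with centring by GC content.

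Ribosomal protein genes were higher in 16 of 44 counted genes and lower in 1, with medians of 0.46 and 1.03, and of 0.65 and 1.11 when centred by GC content. RPL26, a protein of the large ribosomal subunit, had 2898 and 2312 FPKM in PC9M and 177 and 98.2 FPKM in PC9, and RPL37 664 and 529 FPKM in PC9M and 38.8 and 26.8 FPKM in PC9. H358 had 2117 FPKM of RPL26 and 513 FPKM of RPL37, near the PC9M levels. These genes have many processed copies in the genome, among which aligners can split reads in different ways. A pseudogene entry, RPL21P28, is listed at chromosome 13, 26723692 to 26728702, and whether it is a processed copy was not checked. It stood at 1038 and 1004 FPKM in the PC9M controls and 0.273 and 0.00708 FPKM in the PC9 controls. In the GNF5 and ABL shRNA libraries it stood at 1392 and 1143 FPKM in PC9M and 253 and 0.0157 FPKM in PC9. The GNF5 culture of PC9 thus stood far above the other 3 of that line. It was chosen after its values were seen. The ribosomal differences are uncertain for this reason, and the part of read assignment in them was not tested.

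**Figure D4:**
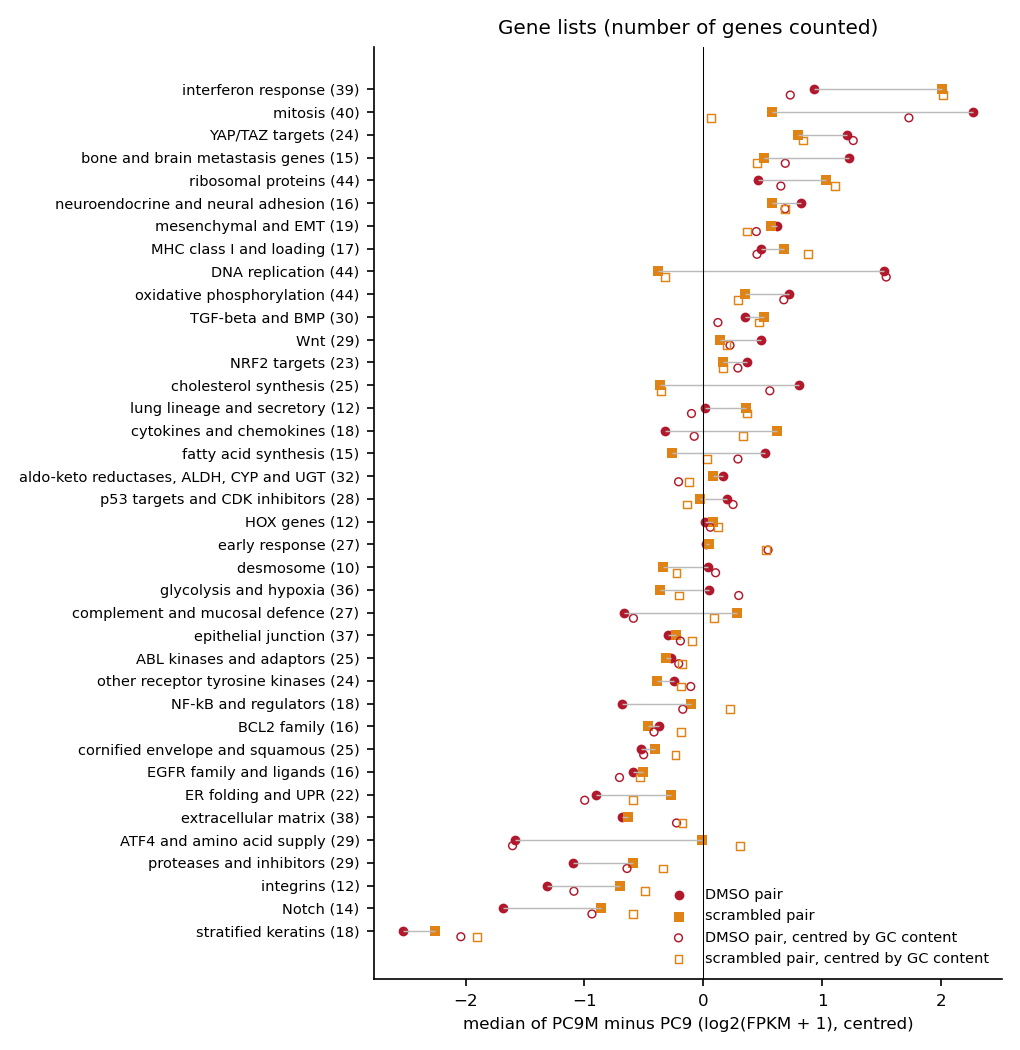
Median PC9M minus PC9 difference, in log2(FPKM + 1), of each gene list with at least 10 counted genes, whose number stands in brackets. Filled circles and squares are the DMSO and scrambled pairs and open marks the same after centring by GC content; stratified keratins are lowest in both pairs, and the DNA replication marks lie on opposite sides of 0.

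Proliferation genes separated the 2 control pairs. Over all 11824 counted genes, 2652 were higher and 2349 lower in the DMSO pair, and 2168 and 1794 in the scrambled pair. Of 40 mitotic genes 37 were higher in PC9M in the DMSO pair and 6 in the scrambled pair, with medians of 2.27 and 0.58. Of 44 DNA replication genes 27 were higher and none lower in the DMSO pair, and 5 were higher and 10 lower in the scrambled pair, with medians of 1.52 and -0.38. On both lists the share of higher genes in the scrambled pair was below that over all counted genes. Within PC9 the scrambled library lay above the DMSO library by a median of 1.70 on the mitotic list and 2.09 on the replication list, against -0.12 and 0.21 within PC9M. RRM2, a subunit of ribonucleotide reductase, shows the step within PC9, with 127 and 177 FPKM in PC9M and 1.22 and 37.7 FPKM in PC9. MKI67, the proliferation antigen Ki-67, had 23.7 and 22.2 FPKM in PC9M and 1.18 and 10.5 FPKM in PC9. The PC9 DMSO library was the lowest of the 4 for both genes. Unlike most of their lists, both were higher in PC9M in both pairs, as were 5 of 44 replication and 6 of 40 mitotic genes. The ATF4 list, genes induced when amino acids run short, was the mirror image, with 22 of 29 genes lower in the DMSO pair and 4 in the scrambled pair, and a scrambled minus DMSO median of -1.60 within PC9; its median in the scrambled pair, -0.01, changes side with upper quartile centring. DDIT4, a stress-induced inhibitor of growth signalling and among the 4 genes of that list lower in both pairs, had 30.2 and 40.7 FPKM in PC9M and 529 and 173 FPKM in PC9.

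The difference between the lines was followed into the treated cultures, which the call had not used. Among the 1707 higher genes 1310, or 76.7%, were also at least 2-fold higher in both the GNF5 pair and the ABL shRNA pair, and among the 1458 lower genes 1125, or 77.2%, were also lower in both. Over all counted genes those shares were 13.3% and 11.9%. No called gene was past 2-fold in the opposite direction in both treated pairs. The GNF5 dose differs, 20 mM for PC9M and 10 mM for PC9 as the labels write it, where the unit may be meant as micromolar and could not be checked. A treated pair comes from the same tables as its control pair. FN1 had 447 and 824 FPKM with GNF5 and with ABL shRNAs in PC9M and 3.64 and 11.2 FPKM in PC9, and KRT13 0.327 and 1.14 FPKM in PC9M and 619 and 463 FPKM in PC9. Interferon genes had medians of 1.29 and 2.83, and stratified keratins of -2.43 and -1.93. FOSB, an AP-1 subunit that was lower in PC9M in both control pairs, had treated levels of 17.3 and 2.55 FPKM in PC9M and 5.13 and 7.42 FPKM in PC9. With the shRNAs, ABL1 stood at 3.56 FPKM in PC9M and 3.97 FPKM in PC9.

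H358 gave an outside point of comparison, from a further table normalised on its own. For 802 of the 1707 higher genes its DMSO level lay within 2-fold of the mean of the PC9M controls and not of the PC9 controls, and for 419 the reverse. For the 1458 lower genes these counts were 784 and 287. In the DMSO libraries 5001 of the counted genes were at least 2-fold apart between PC9M and PC9, 3395 between PC9M and H358, and 4988 between PC9 and H358. Across genes, the PC9M DMSO library had a Pearson correlation of 0.81 with H358 and 0.74 with PC9 DMSO. The PC9M scrambled library had one of 0.80 with H358 and 0.82 with PC9 scrambled, so the order of the 2 lines depends on the control. Base composition moved with this too, as given above, and its part was not tested. Single genes show both patterns: BASP1 and CTGF had 120.5 and 83.6 FPKM in H358, near PC9M, whereas DHRS2 and KRT81 had 604 and 49.97 FPKM, near PC9.

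The called genes were not spread evenly along the genome. Chromosome 22 had the lowest medians, -0.66 and -0.54 in the DMSO and scrambled pairs and -0.36 and -0.27 when centred by GC content. There 84 of 299 counted genes, or 28.1%, were lower and 12 higher, beside overall shares of 12.3% and 14.4%. Chromosome 19 had medians of -0.46 and -0.28, but of 0.06 and 0.08 when centred by GC content. Chromosome 20 had the highest medians when centred by GC content, 0.54 and 0.63. With median centring 73 of its 342 genes, or 21.3%, were higher and 23 lower. There were 20 runs of at least 5 neighbouring counted genes that were all called in the same direction, 15 higher and 5 lower. The longest by far held 17 lower genes near the end of the long arm of chromosome 22, from 48682857 to 49315380 on hg18, with medians of -2.71 and -2.35, and of -2.01 and -1.73 when centred by GC content. Of its 16 genes with a GC value, 10 remained past 2-fold in both pairs with that centring, so the run was then broken. The next longest held 8.

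The run on chromosome 22 reached from ALG12 to SCO2. PLXNB2, a semaphorin receptor at chromosome 22, 49055535 to 49075336, had 27.8 and 27.9 FPKM in PC9M and 309.99 and 325 FPKM in PC9. SBF1, a pseudophosphatase, had 8.60 and 8.97 FPKM in PC9M and 139.9 and 109 FPKM in PC9, but shares its listed locus with PPP6R2. The kinase MAPK12 had 8.89 and 9.17 FPKM in PC9M and 69.3 and 69.5 FPKM in PC9, and SCO2, whose listed locus also holds NCAPH2 and TYMP, 8.18 and 8.97 FPKM in PC9M and 172 and 199 FPKM in PC9. Not every gene of the stretch is alike, since TYMP, a thymidine phosphorylase, had 2.24 and 2.75 FPKM in PC9M and 5.81 and 2.69 FPKM in PC9. From the start of the run to the last counted gene of the chromosome 20 of 28 genes were lower and none higher, with medians of -1.92 and -1.53, against -0.53 and -0.49 over the other 271 genes of the chromosome. When centred by GC content these medians were -1.58 and -0.91, against -0.23 and -0.22. Against H358, the DMSO library of PC9M had a median difference of -0.34 over those 28 genes and that of PC9 one of 2.19. Over the rest of the chromosome these were 0.0015 for PC9M and 0.50 for PC9, and over the highest GC decile of all counted genes 0.0040 for PC9M and 0.73 for PC9. The GNF5 and ABL shRNA pairs had medians of -2.03 and -1.81. DNA copy number was not measured.

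**Figure D5:**
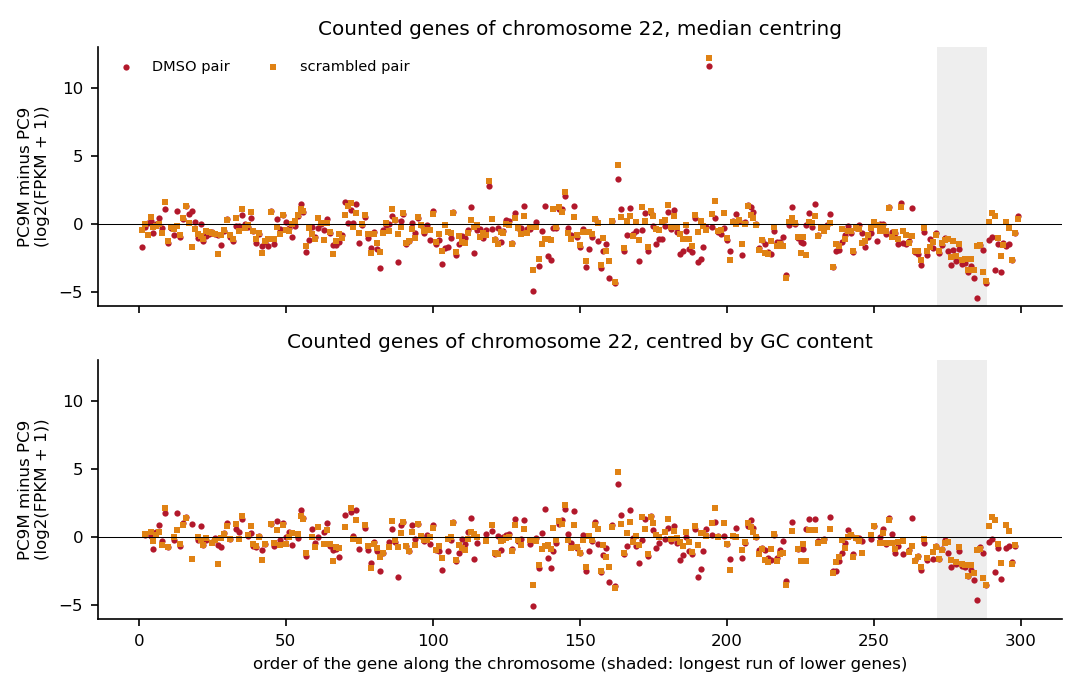
PC9M minus PC9 difference, in log2(FPKM + 1), of the 299 counted genes of chromosome 22 in their order along the chromosome, with median centring above and centring by GC content below. Circles are the DMSO pair and squares the scrambled pair; the shaded run of 17 genes, of which 16 have a GC value, lies below 0 in both panels.

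Runs of higher genes were shorter and of several kinds. On chromosome 16 the metallothioneins MT2A, MT1A, MT1F, MT1G and MT1X were called together, from 55199979 to 55275609, with medians of 4.35 and 3.66; they are near-identical copies. On chromosome 7 the run from TFPI2 to PEG10, from 93353681 to 94136942, held 6 genes with medians of 2.41 and 2.08, of which 5 remained past 2-fold when centred by GC content. It includes the imprinted neighbours SGCE and PEG10. On chromosome 19 there were 4 runs made mostly of zinc finger genes, the longest with 8 genes from 62803065 to 63030642, with medians of 1.60 and 1.30. The run of 7 genes from EAPP to PPP2R3C on chromosome 14 kept 1 gene past 2-fold after centring by GC content.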

How the data were processed

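RNA was sequenced from 10 cultures, each a group of 1 library, of which 4 controls carry the comparison. Per the submitters' processing notes, the tools were TopHat and Cuffdiff on hg18; versions and gene annotation are not given in the sources used here. The authors deposited FPKM values per gene in 5 tables, each normalised on its own, so read depth is unknown and no counting interval can be given.

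Entries with date-like symbols (28 per table), 1591 short RNAs and 242 genes whose estimate the control tables mark as failed were left out. The short RNAs were those with symbols that start with MIR, SNORD or SNORA, so RNU86 stayed in. Values were log2(FPKM + 1), with a pseudocount of 1 FPKM, which understates differences of low genes. Libraries were centred on their medians over 10127 genes with at least 1 FPKM in all 4 controls. No test was run, since each group holds 1 library and the lines stand in tables normalised separately. Steps were checked on simulated data.

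GC content came from GENCODE 29 transcripts, matched by symbol for 87.7% of counted genes, and promoters from RefSeq on GRCh38.p14. Protein-coding genes with at least 5 FPKM in a line were ranked by the smaller of both differences, and the first 15 each way were named, with up to 6 per list. Not every gene that the rule names is reported here. Genes named for contrast were chosen after their values were seen, among them EFNA1, VIM and RPL21P28. The members and the 44 gene lists were chosen with earlier results of these data known. Alternatives were 2 other pseudocounts, 2 other centrings, other minimum levels, protein-coding genes alone and each pair alone; GC centring and keeping failed estimates were added after the data were seen. Python 3.11.15, pandas 2.3.3, numpy 2.4.6 and scipy 1.17.1 were used.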

Additional observations from a re-analysis of the deposited data

Results flagged for a closer look

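The 2 control pairs, DMSO and scrambled shRNA, pointed opposite ways for some genes and lists. For each of them the difference between the pairs was not tested, since each group held 1 library. In opposite directions and at least 2-fold apart in both pairs were 20 genes. ASNS, which makes asparagine and is induced when amino acids run short, had 13.5 and 39.4 FPKM in the DMSO and scrambled libraries of PC9M and 108 and 20.1 FPKM in those of PC9. MCM5, part of the replicative helicase, had 39.6 and 46.04 FPKM in PC9M and 13.98 and 111 FPKM in PC9. HMGCS1, an enzyme of cholesterol synthesis, had 52.3 and 40.8 FPKM in PC9M and 24.02 and 115 FPKM in PC9. For MCM5 and HMGCS1 the PC9 libraries lay on either side of both PC9M libraries; the 3 genes were picked after their values were seen.

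Of the gene lists, DNA replication had medians of 1.52 in the DMSO pair and -0.38 in the scrambled pair. Cholesterol synthesis had medians of 0.80 and -0.36, and fatty acid synthesis of 0.52 and -0.27, in the same order. Cytokines and chemokines had medians of -0.33 and 0.62, and complement and mucosal defence genes of -0.67 and 0.29.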

How the results depend on the processing

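No test over paired replicates was possible because each group holds 1 library and the labels carry no replicate numbers. The lines were paired by control type instead, and each pair was also taken alone. The 1707 genes higher and 1458 lower in PC9M became 745 and 876 with a pseudocount of 5 FPKM, and 2652 and 2349 in the DMSO pair alone, which drops the demand that both pairs agree; the scrambled pair alone gave 2168 and 1794. Centring by GC content gave 936 lower genes over the 10371 genes with a GC value. Under the other alternatives, from a pseudocount of 0.1 FPKM to keeping failed estimates, the counts stayed within 1.5 times, from 1176 to 2197 higher and from 1160 to 1794 lower. FOSB, the only called gene among 338 examined whose mean difference changed sign, had 0.14 in the treated cultures; the cause was not tested. GC centring moved 192 of 323 of these genes and 15 of 39 list medians by more than the spread of both pairs. With 1 library a group, the spread between cultures of a line is not known.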
